A study of Homo sapiens with 6 samples.

Results

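The MHC and peptide loading genes considered here are the rows of the deposited table whose symbol is CALR, PSMB8 or TAPBP or begins with HLA-. They are 6 of the 4546 genes listed. The cells were A549, a line derived from a human lung adenocarcinoma. They had received 50 nM mitoxantrone, a topoisomerase II poison used against cancer, or DMSO, the solvent, diluted 1 in 1000, and RNA was sequenced after 48 hours from 3 libraries of each group. No engineered allele is named in the labels. They do not say whether replicates came from separate cultures, and the p-values therefore measure the spread between these libraries alone, which may be technical. Library totals, worked out from counts and FPKM, lay between 16681380 and 19352443 reads with mitoxantrone and between 20380674 and 21781220 with DMSO.

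The table holds only genes that had passed the authors' threshold in this same comparison: in the authors' deposited table no absolute log2 fold change lies below 1.00 and no adjusted p above 0.0497. Every test of mitoxantrone against DMSO below therefore describes genes already chosen for a difference. A gene said to be not listed has no value here and may or may not have changed. With the quasi-likelihood test of edgeR and an adjusted p under 0.05, the share of listed genes called was 100%, with 58.9% higher and 41.1% lower in mitoxantrone. All 6 genes considered here were called higher. Their groups did not overlap in any of the 6, as was so in the same direction for 57.5% of listed genes. These counts describe the 6 genes, and nothing is read from them, since the table was chosen on the same contrast.

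MHC class I molecules show peptides from inside the cell to CD8 T cells. Proteasomes cut the peptides, the TAP transporter moves them into the endoplasmic reticulum, and a loading complex of tapasin, calreticulin and the oxidoreductase PDIA3 holds the empty heavy chain and its light chain, beta-2 microglobulin, until a peptide fits. Class II molecules instead load peptides in endosomes with the help of HLA-DM, and are found mainly on professional antigen-presenting cells. Calreticulin is also known as a signal for engulfment when it is exposed on the surface of dying cells, an event at the protein level that RNA does not measure.

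The label of peptide loading holds for CALR and TAPBP, in a wider sense for PSMB8, and not for the HLA- rows. CALR encodes calreticulin, TAPBP tapasin and PSMB8 the immunoproteasome subunit also called LMP7. HLA-DMA and HLA-DOA are class II genes, and HLA-F-AS1 is a noncoding RNA antisense to the class I gene HLA-F. Of the class I chains, HLA-B, HLA-C, HLA-E, HLA-F, HLA-G and B2M were not listed. The set is thus called the 6 genes in what follows.

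The promoters of the 6 genes were also looked up, as a description only. RefSeq windows (GRCh38.p14) were found for 6 of them, 7 windows in all since PSMB8 has 2 starts. Each window held 250 bases before and 30 after the start and was searched on both strands for 3 motifs. These were the core of the interferon-stimulated response element (GAAA, any 2 bases, GAAA), the ER stress element (CCAAT, any 9 bases, CCACG) and the CCAAT box (CCAAT), which the ER stress element contains. The calreticulin promoter at chr19:12938359-12938598, plus strand, is shown from 250 to 11 bases before the start, with its single ER stress element, a match on the minus strand, in capitals.
CALR: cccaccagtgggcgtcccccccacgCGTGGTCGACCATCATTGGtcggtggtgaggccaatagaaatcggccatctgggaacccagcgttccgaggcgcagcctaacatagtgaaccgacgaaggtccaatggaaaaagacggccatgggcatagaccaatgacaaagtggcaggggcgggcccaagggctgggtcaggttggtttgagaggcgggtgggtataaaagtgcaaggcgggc
The response element core was found in PSMB8 and TAPBP, and 30 bases around it are shown with the matches in capitals. PSMB8 has it at its second start (chr6:32844032-32844061, minus strand of the chromosome) in reverse orientation, and TAPBP has 2 overlapping copies in forward orientation (chr6:33314076-33314105, minus strand).
PSMB8: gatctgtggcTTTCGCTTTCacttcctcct
TAPBP: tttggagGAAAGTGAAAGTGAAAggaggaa
Of all 35116 RefSeq windows of this length, 27 (0.0769%) held the ER stress element, 1192 (3.39%) the response element core and 11816 (33.6%) a CCAAT box. CCAAT was found 4 times in the CALR window, in 2 places each for HLA-DMA and HLA-F-AS1, once for HLA-DOA and not in the windows of PSMB8 or TAPBP. These matches describe the letters in the windows. No binding was measured, and a link between the matches and the difference in RNA was not tested.

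CALR, the most abundant of the 6 per gene length, was higher with mitoxantrone. Calreticulin mRNA stood at 258.4, 260.1 and 252.6 FPKM (fragments scaled to gene length and library size, so that genes can be compared) in mitoxantrone 1 to 3, against 99.8, 101.4 and 110.6 FPKM in DMSO 1 to 3. The groups lay far apart, with little scatter within each. The mean was 257 ± 3.92 FPKM with mitoxantrone and 104 ± 5.79 FPKM with DMSO (SD, n = 3 libraries each), a 2.62-fold difference in edgeR (log2 fold change 1.39 ± 0.06 SE; adjusted p = 8.4e-24). By mean FPKM the gene ranked 26 of the 4546 with mitoxantrone and 73 with DMSO. The deposited table places CALR (ENSG00000179218) on chromosome 19 from 13049392 to 13055303, plus strand, with no build named. In GENCODE 29 it overlaps AC092069.1 on the opposite strand and the microRNA gene MIR6515, neither of them listed.

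Calreticulin is one of the soluble chaperones of the endoplasmic reticulum lumen, and few of the others were listed. Of 14 such genes, among them HSPA5, HSP90B1, PDIA4 and PDIA6, the table held CRELD2 alone, an ER protein known to be induced by ER stress. CRELD2 had 6.89, 7.17 and 7.05 FPKM with mitoxantrone, against 2.64, 3.31 and 3.33 FPKM with DMSO (log2 fold change 1.27 ± 0.10 SE; edgeR, adjusted p = 8.7e-16). The groups did not overlap. CANX, the membrane-bound relative of calreticulin, and PDIA3 were not listed either.

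TAPBP, the bridge between the TAP transporter and the class I heavy chain, was also higher, close to the limit of the table. Tapasin mRNA was at 23.4, 22.4 and 21.9 FPKM in mitoxantrone 1 to 3, against 11.7, 11.7 and 11.5 FPKM in DMSO 1 to 3. The DMSO libraries were nearly identical and no library crossed over. The difference was 2.06-fold (log2 fold change 1.04 ± 0.07 SE; edgeR, adjusted p = 3.4e-17), and 96.0% of the listed higher genes had a larger one in the authors' deposited table. TAPBP (ENSG00000231925; chromosome 6, 33267471 to 33282164, minus strand, as the table gives it) missed the threshold when tested for more than a 2-fold difference (edgeR's glmTreat, adjusted p = 0.12). The other 5 genes passed that test, where 48.5% of all listed genes were called higher by it. For HLA-DOA the pass rests on 2, 2 and 4 reads with mitoxantrone against 0 in every DMSO library. It is not read as a difference above 2-fold.

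Of the 7 genes of the loading complex and its peptide editors, 3 were listed, all higher, with a median log2 fold change of 1.39. Of all listed genes 58.9% were higher, and the median was 1.87 over those and 1.20 over all listed genes. The third besides CALR and TAPBP was TAPBPL, a tapasin relative that edits peptides outside the complex. TAPBPL was at 2.76, 2.92 and 2.48 FPKM with mitoxantrone, against 0.82, 1.12 and 0.96 FPKM with DMSO, a 2.98-fold difference (log2 fold change 1.58 ± 0.16 SE; edgeR, adjusted p = 4.0e-12). Its level was lower than that of TAPBP in every library. TAP1 and TAP2, which encode the transporter itself, were not listed.

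PSMB8, the immunoproteasome subunit that replaces a catalytic subunit of the standard proteasome, was higher by 2.85-fold. Its mRNA was at 14.0, 13.8 and 13.3 FPKM in mitoxantrone 1 to 3, against 4.78, 5.80 and 4.73 FPKM in DMSO 1 to 3. DMSO 2 stood above the other DMSO libraries but well below all mitoxantrone libraries. The log2 fold change was 1.51 ± 0.11 SE (edgeR, adjusted p = 7.0e-17). The deposited table places PSMB8 (ENSG00000204264) on chromosome 6 from 32808494 to 32812480, minus strand. In GENCODE 29 it overlaps PSMB9 and PSMB8-AS1 on the opposite strand, neither of them listed. The labels do not say whether the libraries kept strand, so reads over such overlaps cannot be told apart.

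Among the 10 genes of peptide generation, 3 were listed, all higher, where 58.9% of all listed genes were. Their median log2 fold change was 1.39, below the 1.87 of all listed higher genes. PSMB10, another catalytic subunit of the immunoproteasome, had 10.7, 9.41 and 8.42 FPKM with mitoxantrone, against 4.46, 4.69 and 5.10 FPKM with DMSO, a 2.12-fold difference (SE of the log2 value 0.12; edgeR, adjusted p = 3.5e-11) that likewise missed the glmTreat threshold (adjusted p = 0.10). ERAP2, an aminopeptidase that trims peptides in the endoplasmic reticulum, was low at 0.58, 0.60 and 0.50 FPKM with mitoxantrone and 0.21, 0.23 and 0.24 FPKM with DMSO, 2.62-fold apart (edgeR, adjusted p = 6.8e-08). In both genes every mitoxantrone library was above every DMSO library. PSMB9, the remaining immunoproteasome subunit, the activator genes PSME1 and PSME2 and the trimming enzyme ERAP1 were not listed, nor were PSMB5, PSMB6 and PSMB7, the standard subunits that the inducible ones replace.

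**Figure D1:**
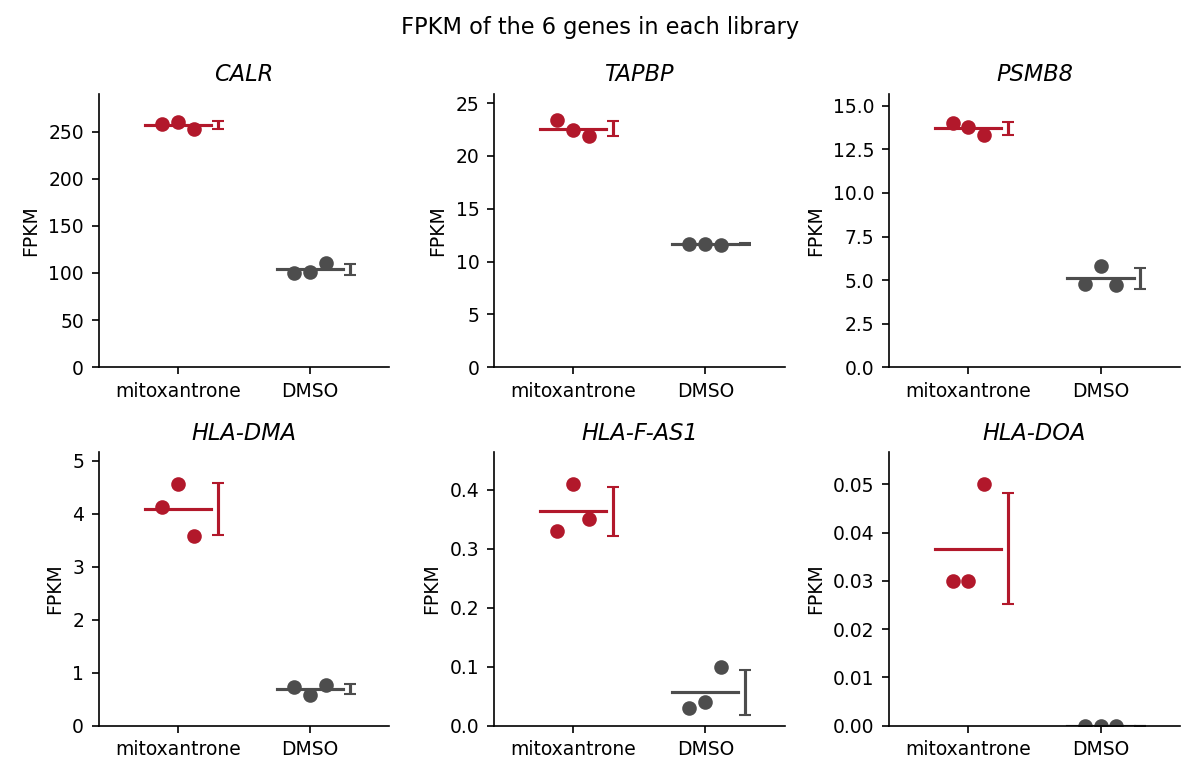
FPKM (vertical axes, from 0) of each of the 6 genes in each library, mitoxantrone left and DMSO right; points are libraries, horizontal lines group means, and bars beside them the SD (n = 3 libraries). In all 6 panels the mitoxantrone points lie above the DMSO points, from 252.6 to 260.1 FPKM for CALR down to 0.03 to 0.05 FPKM for HLA-DOA.

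CALR and PSMB8 were higher relative to TAPBP in every mitoxantrone library than in any DMSO library, though 3 against 3 libraries cannot reach an exact p of 0.05. TAPBP lay near the limit of the table, and 96.0% of the listed higher genes had a larger log2 fold change by the authors' values. The direction of ratios to TAPBP was therefore largely set in advance and is not particular to CALR or PSMB8. Within a library, CALR exceeded TAPBP 11.0, 11.6 and 11.5 times in FPKM with mitoxantrone, against 8.57, 8.67 and 9.60 times with DMSO. These ratios do not depend on how libraries are scaled, and they did not overlap between groups. The log2 ratio differed by 0.35 ± 0.06 (SE), or 1.27-fold (two-sided exact permutation test, p = 0.10, the smallest that 3 against 3 libraries allow, and 0.15 adjusted over the 3 pairs).

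PSMB8 had FPKM ratios to TAPBP of 0.599, 0.615 and 0.608 with mitoxantrone, against 0.410, 0.496 and 0.411 with DMSO (log2 difference 0.47 ± 0.09 SE; exact permutation p = 0.10, adjusted 0.15). Between PSMB8 and CALR the ratios were 0.0543, 0.0530 and 0.0527 with mitoxantrone and 0.0479, 0.0572 and 0.0428 with DMSO, which overlapped. The difference of 0.12 ± 0.12 (SE) on the log2 scale was within the spread of the DMSO libraries (exact permutation p = 0.40, adjusted 0.40).

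**Figure D2:**
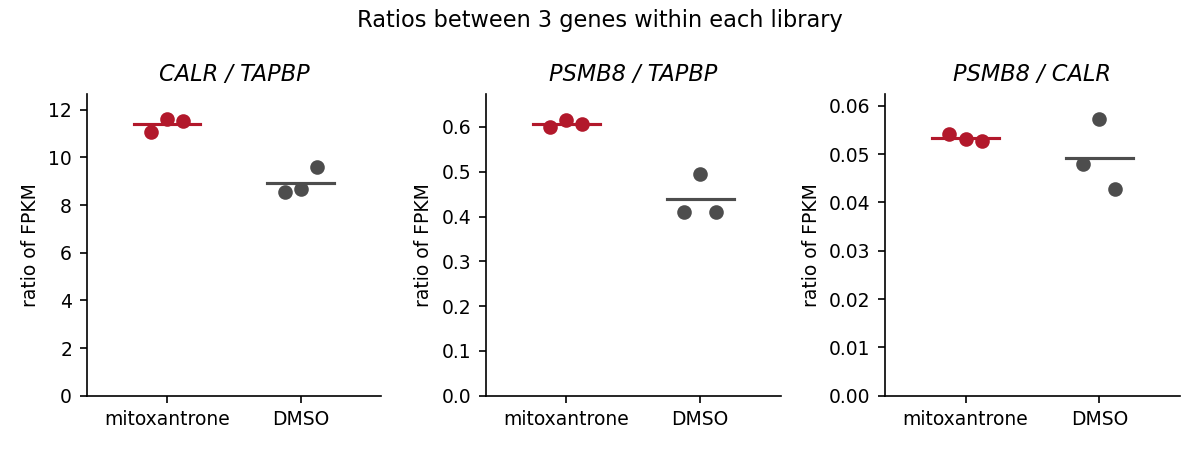
Ratio of FPKM between 2 genes within each library (vertical axes, from 0), mitoxantrone left and DMSO right; points are libraries and lines group means. CALR to TAPBP and PSMB8 to TAPBP are higher in all mitoxantrone libraries, while for PSMB8 to CALR the groups overlap. TAPBP lies near the limit of the table, and most listed higher genes had a larger difference.

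The class II gene HLA-DMA had a larger fold change than the 3 class I pathway genes from a much lower level. HLA-DMA encodes the alpha chain of HLA-DM, which removes the invariant chain fragment from class II molecules. It had 4.12, 4.56 and 3.57 FPKM in mitoxantrone 1 to 3 (174, 202 and 175 reads), against 0.72, 0.58 and 0.77 FPKM in DMSO 1 to 3 (40, 30 and 42 reads). The groups were well apart, at 6.22-fold (log2 fold change 2.64 ± 0.17 SE; edgeR, adjusted p = 5.2e-18), or 1.59 on the log2(FPKM + 1) scale, which understates the change of low genes. A larger log2 fold change was given for 10.4% of the listed higher genes in the deposited table of the authors. HLA-DMA (ENSG00000204257) is given on chromosome 6 from 32916390 to 32936871, minus strand. In GENCODE 29 it overlaps BRD2, on the opposite strand, and the unnamed gene AL645941.2, neither of them listed.

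HLA-DOA encodes the alpha chain of HLA-DO, which restrains HLA-DM. It was near the limit of detection, with 2, 2 and 4 reads in mitoxantrone 1 to 3 and 0 in every DMSO library. Against a limit of 3 reads over the DMSO group, it was 3.31-fold higher. That limit covers only the counting error of the DMSO zeros. The few mitoxantrone reads were taken as exact, so 3.31-fold is not a lower bound of the difference. The fitted log2 fold change of 4.65 has no fixed meaning for a gene with no reads in 1 group, and the authors' deposited table gives 1.48 ± 0.64 with an adjusted p of 0.0407, close to its limit. HLA-DOA lies on chromosome 6 from 32971955 to 32977389, minus strand (ENSG00000204252). With this gene at 3.31-fold, the median log2 fold change of the 6 genes was 1.62, and with its fitted value it was 2.07. The medians of 1.20 over all listed genes and 1.87 over the listed higher ones use fitted values for every gene. Whether the 6 genes lie below or above 1.87 therefore depends on the value given to HLA-DOA.

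HLA-DMA and HLA-DOA were the listed genes among 13 of class II. HLA-DRA, CD74, which encodes the invariant chain, HLA-DMB, the partner chain of HLA-DM, and CIITA, the class II transactivator, were not listed. Since class II genes are usual in leukocytes, markers of other cells were looked at beside them. Of 10 leukocyte markers 3 were listed, all higher, where 58.9% of all listed genes were. ITGAX was at 1.05, 0.91 and 1.09 FPKM with mitoxantrone, against 0.17, 0.06 and 0.16 FPKM with DMSO. CD14 was at 2.45, 2.82 and 2.66 FPKM with mitoxantrone, against 0.56, 0.78 and 0.69 FPKM with DMSO. CD8A was at 0.35, 0.41 and 0.26 FPKM with mitoxantrone, against 0.14, 0.09 and 0.19 FPKM with DMSO. PTPRC, CD3E, MS4A1, ITGAM, NKG7 and HLA-DRA were not listed, and the part of other cells in the class II values was not tested. The listed leukocyte markers summed to between 3.85 and 4.14 FPKM with mitoxantrone and between 0.87 and 1.04 FPKM with DMSO. The labels name A549 alone and give no other cell type. In bulk RNA, a different number of cells of a type and a different amount of RNA per cell cannot be told apart.

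The epithelial markers KRT8, KRT19 and CDH1 were listed of 5, and all were higher, where 58.9% of all listed genes were. KRT8, a keratin of simple epithelia, was at 1326 to 1429 FPKM with mitoxantrone and 619.5 to 705.9 FPKM with DMSO. Of 5 fibroblast and endothelial markers, COL1A1 was lower at 1.53, 1.36 and 1.21 FPKM with mitoxantrone, against 3.51, 3.09 and 3.50 FPKM with DMSO. VWF had 12, 2 and 5 reads with mitoxantrone, against 0, 0 and 3 with DMSO, and overlapped between groups.

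HLA-F-AS1 was rare and higher with mitoxantrone. This noncoding RNA had 23, 30 and 28 reads in mitoxantrone 1 to 3, against 3, 3 and 9 in DMSO 1 to 3, or 0.33, 0.41 and 0.35 FPKM against 0.03, 0.04 and 0.10 FPKM. The difference was 6.67-fold (log2 fold change 2.74 ± 0.42 SE; edgeR, adjusted p = 1.4e-07). DMSO 3 carried most of the DMSO reads, and without it the log2 fold change was 3.43. The gene (ENSG00000214922; chromosome 6, 29694378 to 29716826, minus strand, in the deposited table) overlaps HLA-F and AL645939.2 on the opposite strand and RPL23AP1 and MICE on its own strand in GENCODE 29, none of them listed, so the gene of origin of its reads is uncertain.

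Genes that regulate class I transcription split. Of 9, NLRC5, the class I transactivator, was higher at 1.07, 0.90 and 0.96 FPKM with mitoxantrone, against 0.39, 0.43 and 0.41 FPKM with DMSO (2.52-fold; edgeR, adjusted p = 3.7e-12). NFKB1, which encodes the p105 and p50 forms of an NF-kappa-B subunit, was lower at 5.99, 6.30 and 6.04 FPKM with mitoxantrone, against 17.0, 16.7 and 14.3 FPKM with DMSO (log2 fold change -1.31 ± 0.08 SE; adjusted p = 7.6e-19). In both, no library of one group reached the other. IRF1, IRF2, RELA and the RFX genes were not listed.

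Of 10 genes with a class I-like fold, 2 were listed and both were higher, where 58.9% of all listed genes were. MR1 presents microbial vitamin metabolites to MAIT cells, a kind of innate-like T cell. It had 10.2, 10.4 and 10.1 FPKM with mitoxantrone, against 1.06, 1.23 and 1.21 FPKM with DMSO, a 9.28-fold difference (log2 fold change 3.21 ± 0.09 SE; edgeR, adjusted p = 8.7e-31). PROCR, the endothelial protein C receptor, which presents no peptide, was at 123.1, 113.5 and 117.4 FPKM with mitoxantrone, against 39.1, 39.8 and 35.5 FPKM with DMSO (3.28-fold; adjusted p = 4.8e-24). PROCR was the more abundant of both in all 6 libraries.

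The table's own annotation names presentation via MHC class I for 12 listed genes, all higher, where 58.9% of the table was. Their median log2 fold change was 1.45, CALR, PSMB8 and TAPBP being 3 of them, and the other 9 had a median of 1.58, beside 1.87 over all listed higher genes. Besides MR1, TAPBPL, ERAP2 and PSMB10, these were CTSS, CYBA, ABCB9, CD36 and FCGR1A. CTSS, an endosomal protease known for cutting the invariant chain of class II, had 6.05, 6.64 and 6.17 FPKM with mitoxantrone, against 1.54, 1.61 and 1.71 FPKM with DMSO (4.11-fold; edgeR, adjusted p = 1.2e-20). ABCB9, a lysosomal peptide transporter related to TAP, was 2.45-fold higher, at 1.01, 1.00 and 1.02 FPKM with mitoxantrone and 0.39, 0.46 and 0.46 FPKM with DMSO. CYBA, a subunit of the phagocyte NADPH oxidase, was 2.54-fold higher. CD36, a scavenger receptor, had 2, 8 and 7 reads with mitoxantrone and 1, 0 and 0 with DMSO, and FCGR1A, an Fc receptor with near-identical copies, had 9, 4 and 11 reads with mitoxantrone and 4, 0 and 1 with DMSO; scaled to library size, at 0.18, 0.08 and 0.19 FPKM against 0.06, 0 and 0.02 FPKM, the FCGR1A groups did not overlap. Several of these genes act in phagocytes, and the annotation term does not separate them from the loading machinery.

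**Figure D3:**
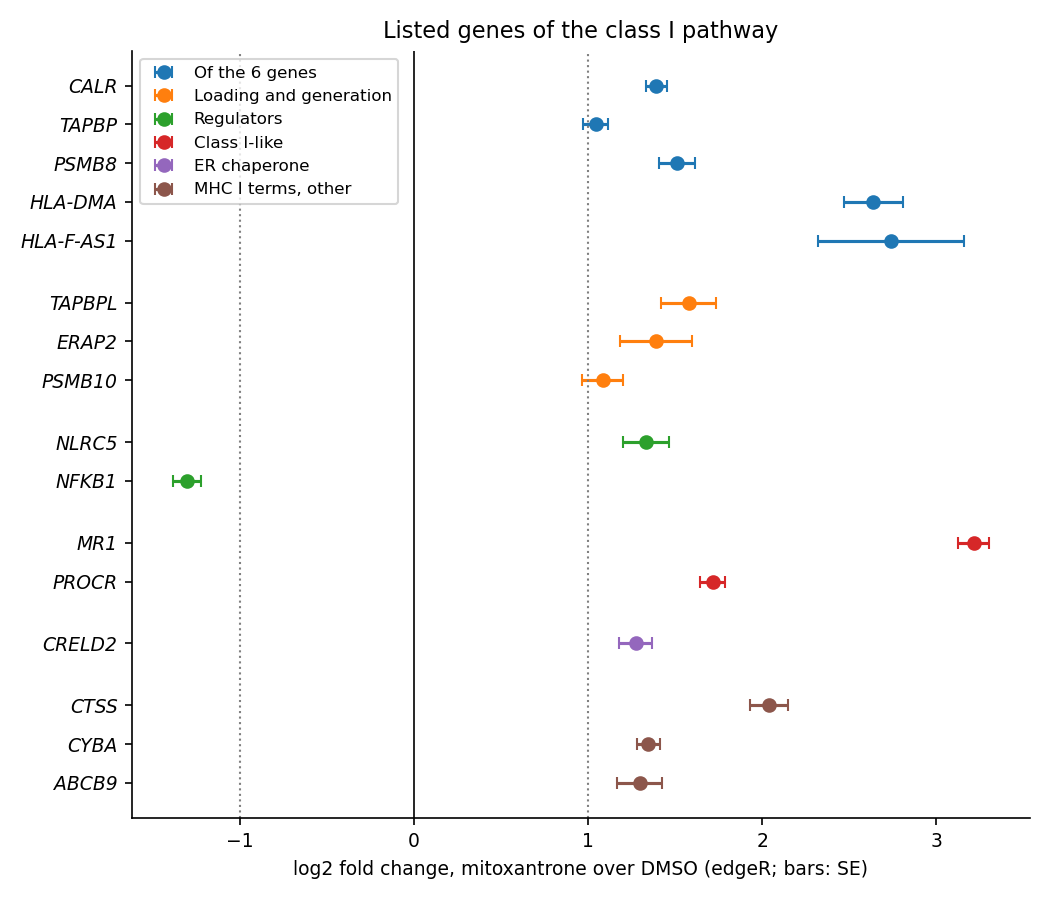
Log2 fold change of mitoxantrone over DMSO from edgeR (horizontal axis; bars, SE; n = 3 libraries each) for listed genes of the class I pathway and related lists. Dotted lines mark a 2-fold difference in either direction, the limit of the deposited table; NFKB1, at -1.31, is the only gene drawn left of 0, and HLA-DOA, CD36 and FCGR1A are not drawn because of their few reads.

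Most of the set sits in one place: 5 of the 6 genes lie on the minus strand of chromosome 6 within the MHC, and CALR lies on chromosome 19. Their place in the MHC follows from choosing genes by HLA- symbols and by the names PSMB8 and TAPBP. Between HLA-F-AS1 and TAPBP, over 3.59 megabases as the table gives it, 33 genes were listed. The 5 genes of the set were all higher, while the other 28 split into 15 higher and 13 lower, or 53.6% higher beside 58.9% of the whole table. FKBPL, an immunophilin-like gene listed next before PSMB8, was lower at 2.36, 1.96 and 1.84 FPKM with mitoxantrone, against 4.03, 4.92 and 4.65 FPKM with DMSO. FKBPL ends at 32098068, whereas PSMB8 starts at 32808494, so they are not close neighbours. HLA-DMA, listed next after PSMB8, and B3GALT4, listed next before TAPBP, were both higher, though the groups overlapped for B3GALT4.

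Of the 18 genes of this span with a mean of at least 50 normalized counts, 8 were higher and 10 lower. Apart from PSMB8, HLA-DMA and TAPBP, the higher ones were HSPA1A (22.7-fold) and HSPA1B (18.9-fold), inducible heat shock proteins whose near-identical sequences make the split of reads between them uncertain, TNXB (3.60-fold), a matrix protein that shares sequence with its partial copy TNXA, DDR1 (2.58-fold), a collagen receptor, and NEU1 (2.39-fold), a lysosomal sialidase. The lower ones were TCF19 (log2 fold change -4.80 ± 0.19 SE), a cell cycle-regulated factor, MDC1 (-1.76), a DNA damage adaptor, IER3 (-1.55), C6orf48 (-1.26), TRIM39 (-1.13), GPANK1 (-1.11), PRR3 (-1.10), NRM (-1.09), MSH5 (-1.06) and FKBPL (-1.06).

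**Figure D4:**
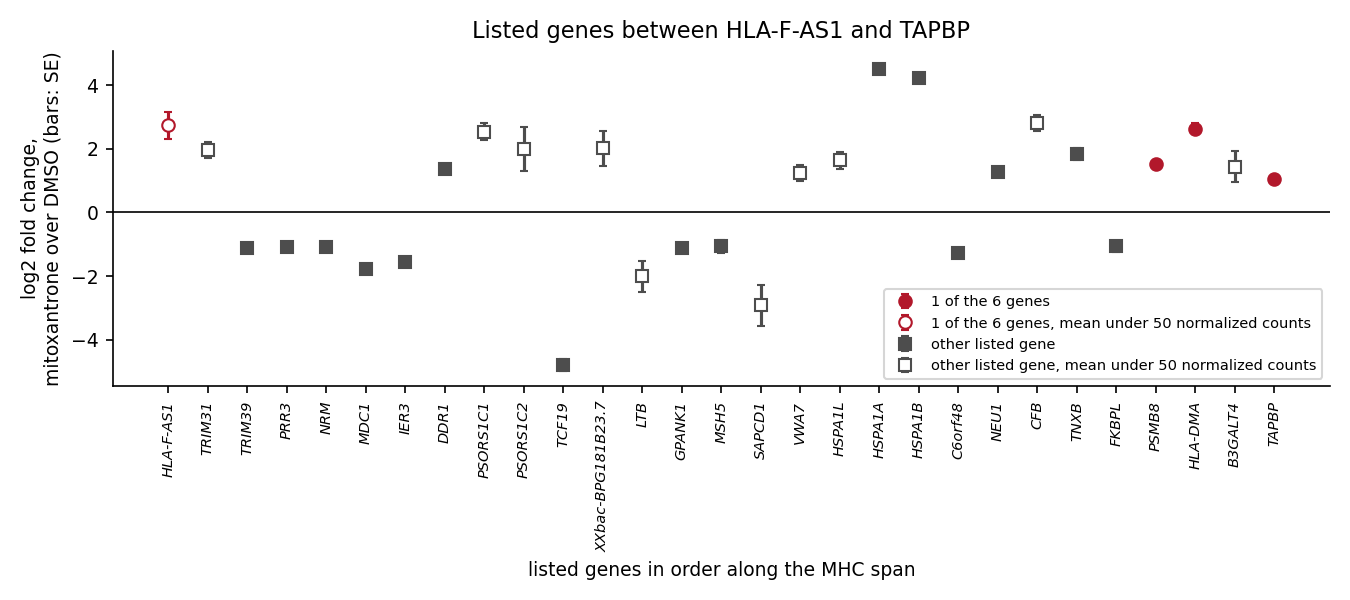
Log2 fold change of mitoxantrone over DMSO (vertical axis; bars, SE; n = 3 libraries each) for 29 listed genes in their order between HLA-F-AS1 and TAPBP, the genes of the set in red circles and the others in grey squares; open symbols have a mean under 50 normalized counts. The red points are all above 0, while the grey ones lie on both sides; the 4 genes with no reads in all libraries of a group, HLA-DOA among them, are not drawn.

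The genes most like each member across the 6 libraries were found by the Euclidean distance between mean-centred log2(FPKM + 0.1) profiles. Only listed genes with a mean of at least 50 normalized counts were searched. All of them were chosen for a difference between the groups, so the distance largely reflects the size of that difference. Shared regulation was not tested. Likeness here is on the log2(FPKM + 0.1) scale, where the pseudocount lowers the difference of genes with low FPKM. A neighbour can therefore have another fold change in edgeR. Nearest to CALR were AHSA1, an activator of HSP90 (distance 0.061), NIPAL3 (0.065) and CD44, a hyaluronan receptor (0.081). Nearest to TAPBP were PSAP, the saposin precursor of lysosomes (0.041), S100A11 (0.045) and TNFAIP2 (0.058). PSMB8 had the noncoding gene RP1-60O19.1 (0.091), ALDH4A1, a mitochondrial enzyme of proline breakdown (0.13) and SPEG (0.13), and HLA-DMA had DOCK8, a regulator of small GTPases (0.28), FBXO32 (0.31) and TMEM38A (0.32). DOCK8 was 11.9-fold higher in edgeR, against 6.22-fold for HLA-DMA, and RP1-60O19.1 was 3.48-fold higher, against 2.85-fold for PSMB8. No gene was nearest to more than one of the 4 members compared.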

How the data were processed

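RNA of A549 cells was sequenced in 3 mitoxantrone and 3 DMSO libraries, grouped and numbered from the sample titles. The tools HISAT2 2.0.1, cutadapt 1.9.1, SAMtools 0.1.19, Cufflinks 2.2.1, HTSeq 0.6.1 and DESeq2 appear in the submitters' processing notes, without their roles. The genome build is not given in the sources used here. Per the file headers, the deposited table holds raw read counts and FPKM values per gene and library. It also holds the authors' signal, a mean of counts after scaling by size factors. Their deposited test gives a log2 fold change with its standard error, their quotient as a score, and a raw and an adjusted p-value.

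Size factors were recovered from the counts and the authors' mean normalized counts (largest relative residual 4.8e-10), and library totals from genes of at least 20 FPKM. The comparison was fitted over all 4546 rows in edgeR 4.0.16 (R 4.3.3) by a quasi-likelihood F-test with the recovered size factors, no filter and Benjamini-Hochberg adjustment over all rows at 0.05, and was tested on simulated data. The biological coefficient of variation, as edgeR names the spread between libraries, was 6.7% over these selected genes. That spread may be technical. Counting error and replicate spread both enter these standard errors. Ratios within libraries were compared by two-sided exact permutation tests. Alternatives were TMM, column and library totals as scaling, DESeq2 1.42.0, a filter of at least 10 counts in 3 samples, glmTreat, limma 3.58.1 on log2(FPKM + 0.1) and log2(FPKM + 1), a replicate block and leaving out each library.

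The members and gene lists were chosen with earlier results of these data known. Named genes were all members, listed genes of the lists, genes annotated to class I presentation, protein-coding genes of the MHC span with a mean of at least 50, and the 3 nearest profiles of each member with such a mean. Coordinates are the table's; 0 of the 6 members share a start or end with GENCODE 29 (GRCh38), which was used only for gene types and overlaps. Promoters are from RefSeq (GRCh38.p14). Some genes of the lists are not reported here.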

Additional observations from a re-analysis of the deposited data

How the results depend on the processing

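Scaling moved all genes together, by a median of -0.26 log2 with TMM, -0.08 with library totals and -0.06 with column totals. TMM and column totals were worked out from the listed genes alone, all chosen for a difference, and so are not scalings over all genes. All 6 members stayed higher and past the threshold under these scalings, DESeq2 and each left-out library. CALR ranged from 1.13 (TMM) to 1.43 (without DMSO 3) and PSMB8 from 1.25 (TMM) to 1.62 (without DMSO 2), while TAPBP was at 0.78 with TMM, all on the log2 scale. Against a 2-fold change the call of TAPBP was lost (adjusted p = 0.12). The log2 difference in the PSMB8 to CALR ratio, 0.12 with all libraries, lay between 0.03 and 0.24 with a library left out. The filter on low counts left HLA-DOA untested, so class II genes called higher were 1 in place of 2. On log2(FPKM + 1) the low genes HLA-DMA, HLA-F-AS1 and HLA-DOA gave 1.59, 0.37 and 0.05. In the MHC span 7 genes in place of 13 were called lower against a 2-fold change. Fibroblast and endothelial markers called higher were 0 in place of 1 (VWF) with the count filter and both limma fits, and 0 to 1 with a library left out. No pairing by replicate number was seen (correlations of same-numbered deviations of -0.07, -0.08 and 0.03 over 2622 genes). With 3 libraries in each group these values cannot exclude a pairing. The replicate block gave 4546 calls, as without it. No value changed direction under any alternative run. The table holds selected genes, so this stability says little of genes near its limit, and HLA-DOA and HLA-F-AS1 are limited by their few reads.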
